A study of Homo sapiens with 2 samples.

Results

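The 10 genes described here form the core of the RB1 pathway: the pocket proteins RB1, RBL1 and RBL2, the INK4 inhibitors CDKN2A, CDKN2B and CDKN2C, the D-type cyclins CCND1 and CCND3, and the kinases CDK4 and CDK6. They were given as a list of names, which uses no threshold on a measured level, and each was matched to its Ensembl identifier, giving 10 of the 30796 genes in the deposited count matrix. The matrix holds single-cell transcriptomes of MDAMB468 and CAL51, established human breast cancer cell lines that the labels call triple negative, the class defined by absent oestrogen and progesterone receptors and no HER2 amplification. There was 1 library for each line, made with Drop-seq. In this method a cell is lysed in an oil droplet beside a bead, whose primers tag its RNA with a barcode for the cell and a UMI (unique molecular identifier) for the molecule, so that each captured molecule is counted once. The labels name no treatment, time point, passage or culture for either line. A difference between the lines is therefore a difference between 2 libraries, with no replicate check and no p-value, and all intervals below (95%) reflect counting error alone.

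MDAMB468 was described by 306 barcodes with 5501900 UMIs, with a median of 10016.5 UMIs per barcode. The CAL51 library held 1377 barcodes, of which 31 had a sequence that also occurred in MDAMB468. These shared barcodes held 0.827% of the CAL51 UMIs and were left out, so that CAL51 is described by 1346 barcodes and 16223444 UMIs, with a median of 8635. A further 64 barcodes in MDAMB468 and 7 in CAL51 are called satellites: each differed at 1 base from another barcode of its own line that had 5 times its UMIs or more. Of the epithelial markers, EPCAM stood at 867 and 283 CPM in MDAMB468 and CAL51 (CPM is the UMI count of a gene scaled to the same total in both lines), KRT8 and KRT18 lay between 555 and 1555 CPM, and KRT7 had 0 UMIs and CDH1 7 UMIs in CAL51. The 31 shared barcodes held a further 106 KRT7 and 3 CDH1 UMIs under the CAL51 label. The receptor genes ESR1 and PGR had 0 to 3 UMIs in each line and ERBB2 stood at 7.09 CPM in MDAMB468 and 16.1 CPM in CAL51. The 5 measured markers of blood and endothelial cells had 0 to 6 UMIs per line.

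In cells that receive growth signals, D-type cyclins bind CDK4 and CDK6, and these complexes phosphorylate the pocket proteins. A pocket protein that is not phosphorylated binds E2F transcription factors and holds genes of DNA replication and division silent, and phosphorylation releases them. The INK4 proteins bind CDK4 and CDK6 directly and block their pairing with cyclin D. Loss of RB1 is a known event in triple negative breast cancer, and cells without functional RB1 protein commonly carry high levels of the CDKN2A product p16INK4a.

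Sequence upstream of the start was available in RefSeq (GRCh38.p14) for 9 of the 10 genes, in 16 windows of 250 bases. CCND1 had no window, and the only RB1 window (chr13:48476200-48476449, plus strand) lies at a start inside the gene, so the sequence before the first RB1 exon was not searched. Each window was searched on both strands for E2F-type letters (TTTCCCGC, TTTCGCGC, TTTGCCGC or TTTGGCGC), for the letters TTTGAA of the CHR element found in many cell cycle genes, and for the E-box CACGTG. The windows of RBL1 and CDK4 are shown because they hold repeated matches, set in capitals, and because both genes differed between the lines by more than 2-fold. The RBL1 window is chr20:37095998-37096247 and the CDK4 window is chr12:57752311-57752560, both on the minus strand and written 5′ to 3′ towards the start.
RBL1: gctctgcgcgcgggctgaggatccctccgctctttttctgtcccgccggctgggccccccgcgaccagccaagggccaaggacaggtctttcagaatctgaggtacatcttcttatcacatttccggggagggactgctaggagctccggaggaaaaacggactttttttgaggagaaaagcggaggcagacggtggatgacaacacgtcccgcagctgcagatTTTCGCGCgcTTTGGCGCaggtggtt
CDK4: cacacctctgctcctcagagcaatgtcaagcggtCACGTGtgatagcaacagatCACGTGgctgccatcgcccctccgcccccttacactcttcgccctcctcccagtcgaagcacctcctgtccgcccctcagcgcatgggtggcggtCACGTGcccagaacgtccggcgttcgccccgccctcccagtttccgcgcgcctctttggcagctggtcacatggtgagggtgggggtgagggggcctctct

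In RBL1 the E2F-type letters occurred 26 to 19 and 16 to 9 bases before the start. Of all 35116 windows in the table, 2.79% held such letters at least once and 43 windows (0.122%) at least 2 times. In CDK4 the E-box letters occurred 216 to 211, 196 to 191 and 101 to 96 bases before the RefSeq start of the window. This window lies inside the CDK4 gene span given below. So do some or all windows of CCND3, CDK6, CDKN2A, CDKN2C and RBL2 for their spans. At least 1 E-box was present in 6.34% of all windows and at least 3 in 28 windows (0.0797%). CDKN2C held 1 E-box in each of 2 of its 3 windows, and the remaining windows of the members, among them only the internal one of RB1, held none of the E2F-type or E-box letters. The CHR letters were in no member window and in 13.3% of all windows. These matches describe letters in a window and were not tested as binding sites.

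Between the lines, 7 of the 10 genes differed by at least 2-fold on the scale of log2(CPM + 1). CDKN2A and CDKN2B were higher in MDAMB468, against 15.8% of the 15347 genes with at least 20 UMIs that were higher by this measure. RB1, RBL1, CDKN2C, CCND1 and CDK4 were lower in MDAMB468, against 18.6% of all genes. RBL2, CCND3 and CDK6 lay within 2-fold. The 7 called genes of 10 stand beside 34.4% of all genes called in either direction. The median log2 difference, MDAMB468 minus CAL51, was -0.31 for the 10 genes and -0.13 for all genes tested. Other scalings moved the median of all genes by -0.12 (TMM), -0.13 (median of ratios) and 0.10 (totals without mitochondrial and ribosomal protein genes), and no member changed sign under any of them.

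**Figure D1:**
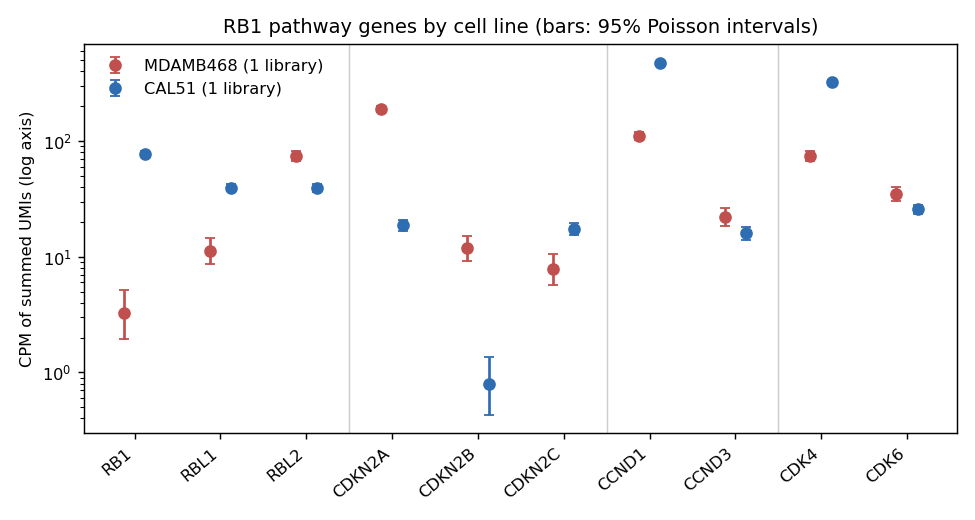
CPM of the summed UMIs of each gene (log axis) in MDAMB468 (red) and CAL51 (blue), with 95% Poisson intervals as bars and vertical lines between pocket proteins, INK4 inhibitors, D cyclins and kinases. RB1 stood at 3.27 CPM in MDAMB468 and 78.0 CPM in CAL51, and CDKN2A at 189 and 18.7 CPM.

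RB1, the retinoblastoma protein (ENSG00000139687; chromosome 13, 48303726 to 48599436, plus strand), had the largest difference of the 10 genes, a log2 difference of -4.21. With a pseudocount of 10 CPM in place of 1 it was -2.73 and that of CDKN2A, at 2.79, was larger in size. Its level was 3.27 CPM in MDAMB468 (1.94 to 5.17, from 18 UMIs) and 78.0 CPM in CAL51 (73.8 to 82.5, from 1266 UMIs). MDAMB468 thus held 4.19% of the CAL51 level, and CAL51 was 23.9-fold higher (15.0 to 40.4). The 18 UMIs were spread over 17 of the 306 MDAMB468 barcodes, 16 of them with 1 UMI and 1 with 2. These barcodes had 3168 to 113667 UMIs in all, with a median of 24696, and only 1 of the 18 RB1 UMIs came from a satellite. In CAL51, RB1 was found in 661 barcodes, with up to 16 UMIs in 1 barcode.

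The low RB1 level in MDAMB468 was set beside that of GSTP1, chosen after its values were seen. GSTP1 had the lowest log2 difference of the 15347 genes tested, where RB1 ranked 207 from the lowest. It therefore lies below RB1 by selection, and the comparison cannot show where the RB1 UMIs came from. GSTP1, which encodes a glutathione transferase and was among the most abundant genes of CAL51 at 5263 CPM, had 9 UMIs in MDAMB468, 0.0311% of its CAL51 level. When every barcode was thinned to 2500 UMIs, RB1 was detected in 3 of 306 MDAMB468 barcodes (0.980%, 0.203% to 2.84%) and in 236 of 1346 CAL51 barcodes (17.5%, 15.5% to 19.7%). GSTP1 was detected in 1 of 306 MDAMB468 barcodes at that depth (0.327%, 0.00827% to 1.81%). Counts of 3 and 1 barcodes are too few to compare the RB1 and GSTP1 shares. At 5000 UMIs, with 212 MDAMB468 barcodes, the share was 4.25% for RB1 (1.96% to 7.91%) and 0.943% for GSTP1 (0.114% to 3.37%). Set against the CAL51 level, RB1 in MDAMB468 stood at 4.19% and GSTP1 at 0.0311%. GSTP1 is 1 gene and bears only on RNA of CAL51 origin, and the source of the 18 RB1 UMIs was not tested. Without thinning the RB1 shares were 5.56% and 49.1%, at median depths of 10016.5 and 8635 UMIs, and the GSTP1 share in MDAMB468 was 2.94%.

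RBL1 (p107; ENSG00000080839; chromosome 20, 36996349 to 37095995, minus strand) is a pocket protein that binds the repressor E2Fs and is itself a known E2F target. It differed in the same direction as RB1 but by less. Its level was 11.3 CPM in MDAMB468 (8.64 to 14.4, 62 UMIs) and 39.7 CPM in CAL51 (36.7 to 42.9, 644 UMIs), 3.52-fold higher in CAL51 (2.71 to 4.65). At 2500 UMIs it was detected in 3.27% of MDAMB468 and 8.92% of CAL51 barcodes.

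RBL2 (p130; ENSG00000103479; chromosome 16, 53433977 to 53491649, plus strand), the pocket protein of the DREAM repressor complex in resting cells, ran in the opposite direction. It stood at 74.9 CPM in MDAMB468 (67.8 to 82.5, 412 UMIs) and 39.5 CPM in CAL51 (36.5 to 42.7, 641 UMIs), 1.90-fold higher in MDAMB468 (1.67 to 2.15). At equal depth it was detected in 17.3% of MDAMB468 barcodes (13.3% to 22.04%) and 9.66% of CAL51 barcodes (8.13% to 11.4%). Its log2 difference of 0.91 fell short of the 2-fold limit, and over 8 alternative settings it ran from 0.76 to 1.02.

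The sum over the pocket proteins was 89.4 CPM in MDAMB468 and 157 CPM in CAL51, 1.76-fold higher in CAL51 (1.60 to 1.94). RBL1 and RBL2 together were at 86.2 and 79.2 CPM, a ratio of 1.09 (0.977 to 1.21), so the gap in the sum lay with RB1. RB1 made up 3.66% of the pocket protein UMIs in MDAMB468 (2.18% to 5.72%) and 49.6% in CAL51 (47.7% to 51.6%). The ratio of RB1 to RBL2 UMIs does not depend on how the libraries are scaled. It was 0.0437 in MDAMB468 and 1.98 in CAL51, a 45.2-fold gap (27.9 to 77.7). This gap is wider than the 23.9-fold difference of RB1 because RBL2 was itself 1.90-fold higher in MDAMB468. A ratio to RBL1, which was lower in MDAMB468, would be narrower.

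**Figure D2:**
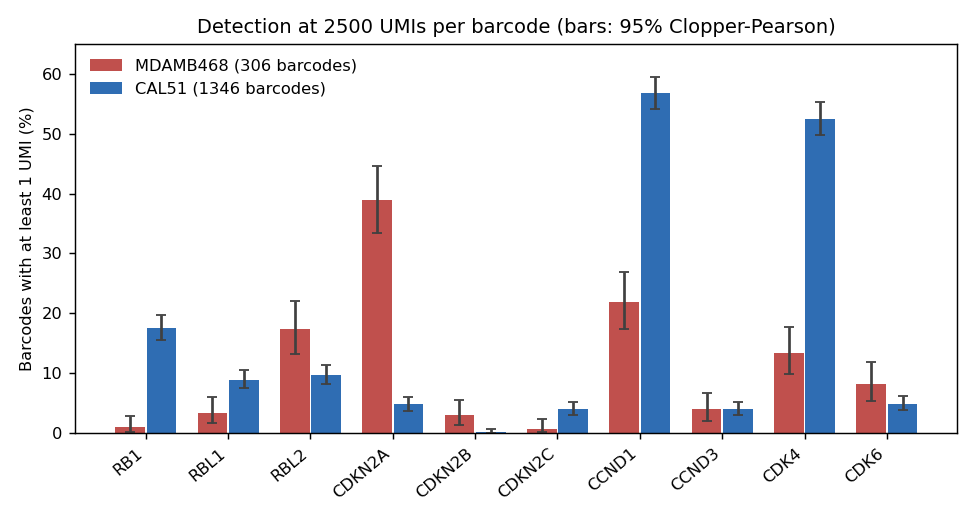
Percent of barcodes with at least 1 UMI of each gene after thinning every barcode to 2500 UMIs, for 306 MDAMB468 barcodes (red) and 1346 CAL51 barcodes (blue), with 95% Clopper-Pearson intervals. CDKN2A was detected in 38.9% of MDAMB468 barcodes against 4.75% in CAL51, and CDK4 in 13.4% against 52.5%.

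CDKN2A (ENSG00000147889; chromosome 9, 21967753 to 21995301, minus strand) encodes p16INK4a and, from another start and reading frame, the MDM2 inhibitor p14ARF. The transcripts share their 3′ exons, so 3′ counts do not tell these products apart. The gene stood at 189 CPM in MDAMB468 (178 to 201, 1039 UMIs) and 18.7 CPM in CAL51 (16.7 to 21.0, 304 UMIs), 10.1-fold higher in MDAMB468 (8.86 to 11.5). At equal depth it was detected in 119 of 306 MDAMB468 barcodes (38.9%, 33.4% to 44.6%) and 64 of 1346 CAL51 barcodes (4.75%, 3.68% to 6.03%). The 31 shared barcodes held a further 35 CDKN2A UMIs under the CAL51 label. In MDAMB468 the level was 130 CPM in the shallowest 102 barcodes (95.7 to 173), 62 of which were satellites, and 212 and 188 CPM in the middle and deepest 102.

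CDKN2B (p15INK4b; ENSG00000147883; chromosome 9, 22002903 to 22009363, minus strand), the neighbour of CDKN2A and a known target of TGF-beta signalling, was also higher in MDAMB468. Its counts were small, with 65 UMIs in MDAMB468 (11.8 CPM, 9.12 to 15.1) and 13 in CAL51 (0.801 CPM, 0.427 to 1.37). MDAMB468 was 14.7-fold higher (8.05 to 29.2). At equal depth it was detected in 9 MDAMB468 barcodes (2.94%, 1.35% to 5.51%) and 3 CAL51 barcodes (0.223%, 0.0460% to 0.650%). For comparison, KRT7, at 953 CPM in MDAMB468, was detected in 0 of 1346 CAL51 barcodes, with an upper limit of 0.274%. Without thinning, KRT7 had 0 UMIs in CAL51, beside the 13 of CDKN2B. The shared barcodes left out of CAL51 held 106 KRT7 UMIs and 0 CDKN2B UMIs. KRT7 was chosen after its values were seen and ranked 2 from the highest log2 difference of all genes tested. The long antisense gene CDKN2B-AS1 covers all of CDKN2B on the other strand and had 89 and 82 UMIs. The sources used here do not say whether counting used the strand, so the split of reads between these genes is uncertain.

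CDKN2C (p18INK4c; ENSG00000123080; chromosome 1, 50960745 to 50974633, plus strand), an INK4 gene known as an E2F target, went the other way. Its level was 7.82 CPM in MDAMB468 (5.66 to 10.5, 43 UMIs) and 17.3 CPM in CAL51 (15.4 to 19.5, 281 UMIs), 2.22-fold higher in CAL51 (1.60 to 3.13). Its log2 difference of -1.06 lay just past the 2-fold limit and ran from -1.48 to -0.62 over the settings. It was within 2-fold without satellites (-0.998), with totals without mitochondrial and ribosomal protein genes (-0.97) and at a pseudocount of 10 CPM. The 3 INK4 genes thus did not all differ in 1 direction. Their sum, without CDKN2D, was 208 CPM in MDAMB468 and 36.9 CPM in CAL51, 5.66-fold higher in MDAMB468 (5.12 to 6.25), and CDKN2A made up 90.6% of it in MDAMB468 and 50.8% in CAL51.

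CCND1 (cyclin D1; ENSG00000110092; chromosome 11, 69641087 to 69654474, plus strand), the regulatory partner that activates CDK4 and CDK6, was the member with the highest UMI count in CAL51. It stood at 111 CPM in MDAMB468 (103 to 120, 612 UMIs) and 475 CPM in CAL51 (465 to 486, 7713 UMIs), 4.27-fold higher in CAL51 (3.94 to 4.65). At equal depth it was detected in 21.9% of MDAMB468 barcodes (17.4% to 27.0%) and 56.8% of CAL51 barcodes (54.1% to 59.5%). The gene LTO1 overlaps its 3′ end on the other strand and had 144 and 242 UMIs. CCND3 (cyclin D3; ENSG00000112576; chromosome 6, 41934933 to 42050357, minus strand), a paralog with the same function, was at 22.2 CPM (18.4 to 26.5, 122 UMIs) and 16.0 CPM (14.1 to 18.0, 259 UMIs). That is 1.39-fold higher in MDAMB468 (1.11 to 1.73), within 2-fold, and its shares at equal depth were 3.92% and 3.94%. The CCND1 to CCND3 ratio of UMIs was 5.02 in MDAMB468 and 29.8 in CAL51, a 5.94-fold gap (4.67 to 7.51).

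CDK4 (ENSG00000135446; chromosome 12, 57747727 to 57756013, minus strand), the kinase that starts pocket protein phosphorylation, was lower in MDAMB468 by about the same factor as its cyclin partner CCND1. It stood at 74.0 CPM in MDAMB468 (67.0 to 81.5, 407 UMIs) and 327 CPM in CAL51 (318 to 336, 5303 UMIs), 4.42-fold higher in CAL51 (3.99 to 4.90). It was detected at equal depth in 13.4% of MDAMB468 barcodes (9.79% to 17.7%) and 52.5% of CAL51 barcodes (49.8% to 55.2%). TSPAN31 and MARCHF9 overlap CDK4 on the other strand, with 42 and 16 UMIs in MDAMB468 and 280 and 101 in CAL51. CDK6 (ENSG00000105810; chromosome 7, 92604921 to 92836594, minus strand), the paralogous kinase, was at 34.9 CPM (30.1 to 40.2, 192 UMIs) and 25.6 CPM (23.2 to 28.2, 416 UMIs), 1.36-fold higher in MDAMB468 (1.14 to 1.62). The CDK4 to CDK6 ratio was 2.12 in MDAMB468 and 12.7 in CAL51, a 6.01-fold gap (4.90 to 7.36).

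Within both pairs, CCND1 with CCND3 and CDK4 with CDK6, the gene with more UMIs was lower in MDAMB468 and the paralog was slightly higher there. The balance of inhibitors to kinases also differed. UMIs of CDKN2A, CDKN2B and CDKN2C per CDK4 and CDK6 UMI were 1.91 in MDAMB468 and 0.105 in CAL51, an 18.3-fold gap (16.0 to 20.9). With CDKN2D, the remaining INK4 gene, added they were 2.22 and 0.123, an 18.04-fold gap (15.9 to 20.5). CDKN2A UMIs per CDK4 UMI were 2.55 and 0.0573, a 44.5-fold gap (37.7 to 52.6). These ratios of RNA are free of library scaling, and RNA levels of an inhibitor and its kinase say nothing of their protein levels.

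Without thinning, the shares of barcodes with a UMI in MDAMB468 and CAL51 were 71.2% and 14.1% for CDKN2A, 16.0% and 0.892% for CDKN2B, and 9.48% and 16.3% for CDKN2C. They were 15.7% and 32.2% for RBL1 and 53.9% and 32.7% for RBL2. For CCND1 they were 57.2% and 85.1%, for CCND3 26.8% and 15.1%, for CDK4 50% and 88.9%, and for CDK6 33.3% and 20.2%. CDK6 at 2500 UMIs was at 8.17% (5.36% to 11.8%) and 4.90% (3.81% to 6.20%), and CDKN2C at 0.654% (0.0793% to 2.34%) and 4.01% (3.03% to 5.20%). Each gene except CCND3, whose shares at 2500 UMIs were alike, thus had its higher share in the same line at both depths, and that was also the line with the higher CPM.

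Single barcodes held few of the 10 genes at once. At 2500 UMIs, 82 of 306 MDAMB468 barcodes (26.8%) had none of them and 133 had 1, while in CAL51 149 of 1346 barcodes (11.1%) had none and 488 had 1. No MDAMB468 barcode had more than 4 and no CAL51 barcode more than 6. The spread over barcodes was examined with the Fano factor, the variance over the mean, which is 1 for pure counting noise. CCND1 in CAL51 had a Fano factor of 1.97, above 97.8% of the 135 genes of like mean (within 1.2-fold), whose quartiles were 1.07 and 1.18. At that depth 402 CAL51 barcodes (29.9%) had at least 2 CCND1 UMIs, 54 had at least 5 and the highest had 14. In MDAMB468 the Fano factor of CCND1 was 1.05, and 12 barcodes (3.92%) had 2 UMIs and none had more. The mean was 0.258 CCND1 UMIs per barcode there and 1.18 in CAL51. At 5000 UMIs the MDAMB468 factor was 1.31, at a mean of 0.472, with up to 4 UMIs in a barcode. Because the means differ, these factors do not show that the spread of CCND1 differs between the lines. RBL2 in CAL51 had a Fano factor of 1.16, above 95.1% of 1061 genes of like mean, with at least 2 UMIs in 12 barcodes. At 1000 and 5000 UMIs the RBL2 factor in CAL51 was 0.962 and 1.09, beside 1.39 and 2.74 for CCND1. CDK4 and RB1 in CAL51 (1.08 and 1.05) and CDKN2A in MDAMB468 (1.01) lay between the quartiles of their genes of like mean.

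Cell cycle phases were called from lists of S phase and of G2 and M phase genes that hold none of the 10 genes, on barcodes thinned to 1000 UMIs. A called phase is a range of 2 scores and not a cell type. In MDAMB468, 74 barcodes were called G1, 77 S and 155 G2M, and in CAL51 174, 389 and 783. Of these, 63 in MDAMB468 and 241 in CAL51 lay within 0.05 of a boundary between calls. Median depths of the called classes ran from 9323 to 13273 UMIs in MDAMB468 and from 6926.5 to 9170 in CAL51. RB1 was lower in MDAMB468 in each called phase, with log2 differences of -4.48 in G1, -4.10 in S and -4.16 in G2M. In MDAMB468 these rest on 3, 6 and 9 RB1 UMIs, a split of the same 18. CDKN2A was higher in MDAMB468 in each called phase, with log2 differences of 3.20, 3.36 and 3.17. CDK4 was lower in each, at -2.18, -1.84 and -2.24.

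CCND1 differed between the called phases of CAL51. Its level was 710 CPM in barcodes called G1 (670 to 751), 399 CPM in S (381 to 419) and 470 CPM in G2M (456 to 483). The S level was 0.563 of the G1 level, or 1.78-fold lower (1.65 to 1.91). In MDAMB468 the levels were 115 CPM (97.5 to 136), 94.1 CPM (78.4 to 112) and 117 CPM (105 to 131), with overlapping intervals and an S to G2M ratio of 0.801 (0.648 to 0.985). The CCND1 Fano factor in CAL51 was 2.73 within G1, 1.75 within S and 1.76 within G2M, so the wide spread was present inside each call.

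CDKN2C in CAL51 was at 7.11 CPM in G1 (3.67 to 12.4), 11.3 CPM in S (8.36 to 14.8) and 21.7 CPM in G2M (18.9 to 24.8). The G2M level was 3.05-fold the G1 level (1.71 to 5.999), where G1 rested on 12 UMIs, and 1.96-fold (1.01 to 4.34) with phases called at 2500 UMIs. In MDAMB468 the values were 3.95, 6.67 and 10.05 CPM, from 5, 9 and 29 UMIs, a G2M to G1 ratio of 2.54 (0.972 to 8.41), whose interval holds 1. RB1 in CAL51 was at 74.0 CPM in G1, 92.3 CPM in S and 72.4 CPM in G2M. Its S level was 1.27-fold its G2M level (1.13 to 1.44), and 1.11-fold when phases were called at 2500 UMIs. CDKN2A in MDAMB468 was at 221 CPM in G1 (195 to 248), 190 CPM in S (167 to 214) and 175 CPM in G2M (160 to 191). Its ratio of G2M to G1 was 0.791 (0.682 to 0.919), and 0.954 with calls at 2500 UMIs.

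**Figure D3:**
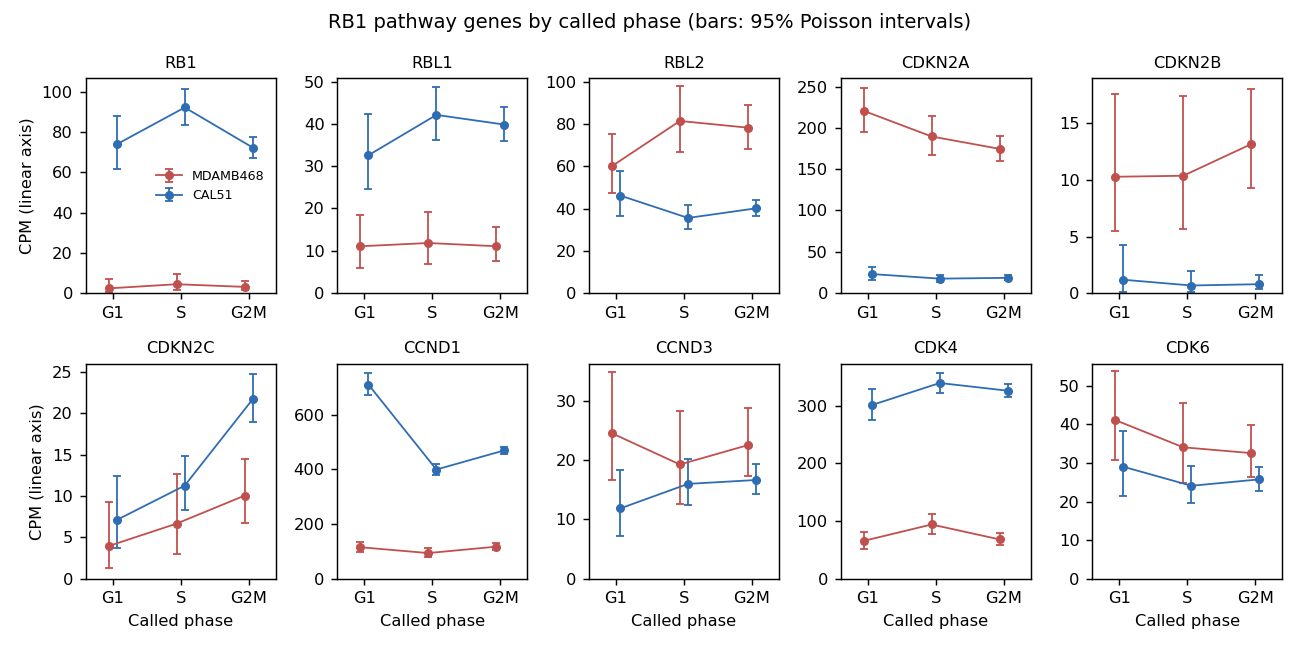
CPM (linear axes from 0, scaled per panel) of each gene in barcodes called G1, S and G2M, for MDAMB468 (red) and CAL51 (blue), with 95% Poisson intervals. CCND1 in CAL51 was highest in G1 at 710 CPM, and CDKN2C in CAL51 was highest in G2M at 21.7 CPM.

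Other genes of the pathway were described by lists, whose counts stand beside 15.8% of all genes tested higher and 18.6% lower by 2-fold. Of the CDK2 module and further inhibitors, 8 of 10 genes had at least 20 UMIs, 1 was higher and 4 were lower in MDAMB468, and the median was -1.01. CDKN2D (p19INK4d) was 5.10-fold higher in MDAMB468 (3.997 to 6.53; 185 and 107 UMIs), as CDKN2A and CDKN2B were. CDKN1B, which encodes the CDK2 inhibitor p27, was 4.10-fold higher in CAL51 (3.49 to 4.84), and its ubiquitin ligase subunit SKP2 3.55-fold (2.88 to 4.42). The phosphatase CDC25A was 3.96-fold higher in CAL51 (2.63 to 6.22). CCNE1, which encodes cyclin E1 and activates CDK2, had a log2 difference of 0.80, CCNE2 one of -0.05 and the p53 target CDKN1A one of -0.63, all within 2-fold. The third D cyclin, CCND2, had 0 UMIs in MDAMB468, which allows up to 0.545 CPM, and 7 in CAL51.

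The E2F and DP factors had 0 of 10 genes higher and 3 lower by 2-fold, with a median of -0.11. The 3 were the repressors E2F7 (-1.44) and E2F8 (-1.13) and the pocket protein partner E2F5 (-1.14). The activators E2F2 (0.60) and E2F3 (0.44) and the dimer partner TFDP1 (0.29) were the highest, and E2F1 was at -0.92 from 17 and 109 UMIs. Of the 8 MuvB and DREAM partners, 0 were higher and 3 were lower, with a median of -0.62. The lower ones were the MuvB subunits LIN54 (-1.69) and LIN52 (-1.68) and the mitotic factor FOXM1 (-1.41), while LIN37 (0.51, 11 and 18 UMIs), LIN9 (0.35) and the kinase DYRK1A (-0.32) were the highest. Of the 8 pocket protein corepressors, 1 was higher and 0 were lower, with a median of 0.20. DNMT1, the maintenance DNA methyltransferase, was the higher one (1.49; 1022 and 364 CPM), followed by ARID4A (0.48) and HDAC2 (0.45), and KDM5A (-0.95), HDAC1 (-0.46) and SUV39H1 (-0.33) were the lowest.

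The 26 E2F target genes had 0 higher and 8 lower in MDAMB468 by 2-fold, with 21 of 26 below 0 and a median of -0.79, against 8454 of 15347 genes below 0. The replication licensing genes MCM2 (-2.12) and CDC6 (-1.63) were the lowest. The checkpoint kinase gene CHEK1 (0.98), CDT1 (0.37) and the mitotic kinase gene CDK1 (0.36) were the highest. Beside these values, 24.2% of MDAMB468 barcodes (19.5% to 29.4%) and 12.9% of CAL51 barcodes (11.2% to 14.8%) were called G1, or 13.1% and 7.43% with phases called at 2500 UMIs. The part of this difference in the list was not tested. The phase lists share MCM2, CDC6 and CDK1, among others, with the E2F targets.

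**Figure D4:**
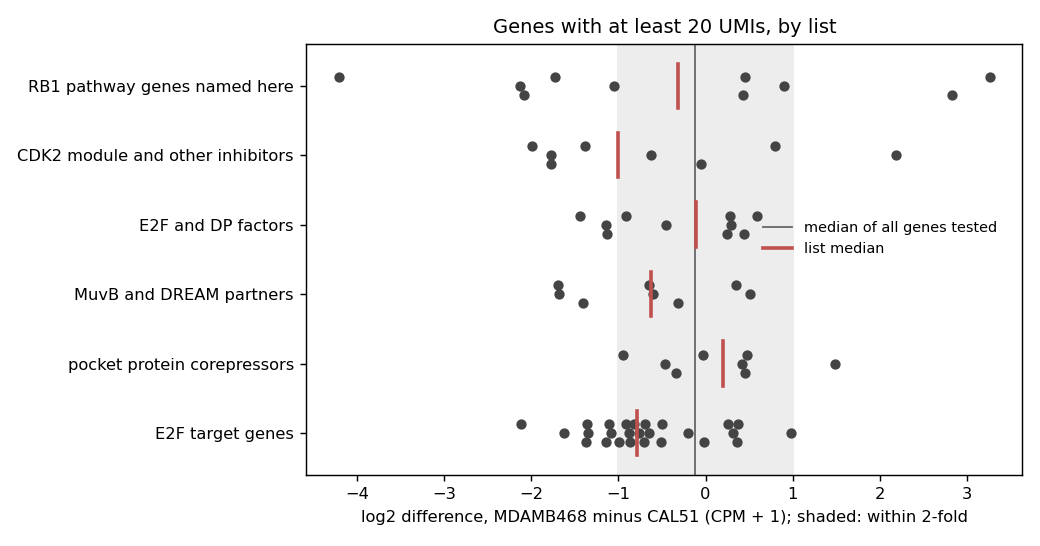
Log2 difference of CPM + 1, MDAMB468 minus CAL51, for each gene with at least 20 UMIs in the 10 pathway genes and 5 further lists, with list medians in red, the median of all genes (-0.13) as a grey line and the 2-fold range shaded. The E2F targets had a median of -0.79, with 21 of 26 genes below 0.

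The genes around each member were listed to show what else lay within 1 Mb on the chromosome (positions from GENCODE release 29 on GRCh38). Log2 values of genes with 0 or 1 UMI in a line depend on the pseudocount. The counts below stand beside the 15.8% of all genes tested that were higher and the 18.6% that were lower, and with 6 to 31 genes a locus they are descriptions only. Near RB1, 16 genes had at least 20 UMIs, of which 0 were higher and 6 were lower in MDAMB468, with a median of -0.63. ITM2B, which starts before RB1, was the lowest (-2.89; 1230 and 26948 UMIs). RCBTB2, which overlaps RB1 on the other strand, was at -2.68 with 1 and 107 UMIs. The protein-coding SUCLA2 (-1.75), RCBTB1 (-1.36) and MED4 (-1.10) were also past 2-fold, and the highest was the processed pseudogene PSME2P2 (0.86). On this scale RB1 itself, at -4.21, was lower than all 16. As a plain ratio, RCBTB2 was 36.3-fold higher in CAL51 (6.37 to 1446), beside 23.9-fold for RB1 (15.0 to 40.4). The rank of RB1 below RCBTB2 thus depends on the pseudocount. LPAR6, which lies inside RB1 on the other strand, had 1 UMI in MDAMB468 and 0 in CAL51.

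**Figure D5:**
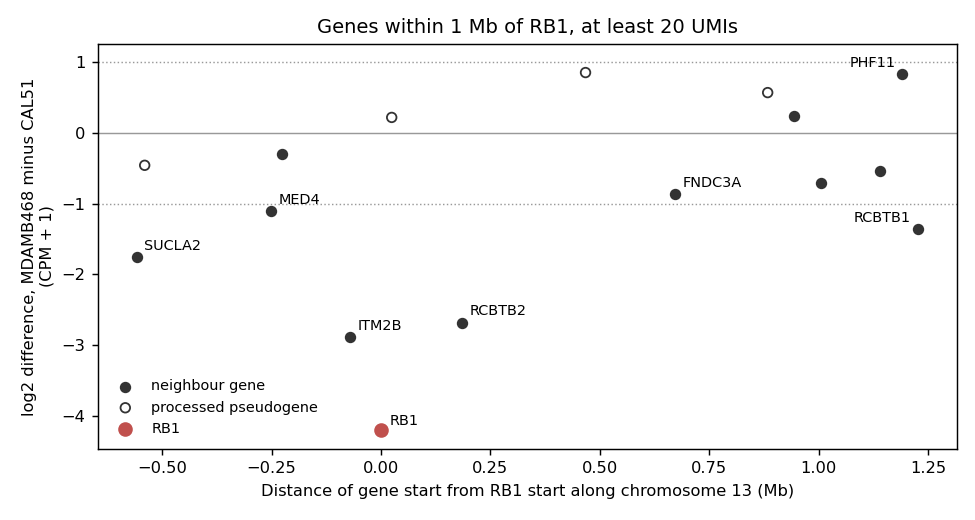
Log2 difference of CPM + 1, MDAMB468 minus CAL51, of RB1 (red) and of genes within 1 Mb with at least 20 UMIs, against the distance of their start from the RB1 start, with processed pseudogenes as open circles and dotted lines at 2-fold; 15 of the 16 genes are drawn. RB1 stood at -4.21, ITM2B at -2.89 and PHF11 at 0.83.

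Around RBL1, 8 of 19 genes were lower and 0 higher, with a median of -0.90. They ran from the myosin light chain gene MYL9 (-7.78; 1 and 4203 UMIs) to EPB41L1 (0.29). Around CDK4, 8 of 31 genes were lower and 1 was higher (median -0.51, from LRP1 at -3.34 to NXPH4 at 2.29). Around CDKN2A and CDKN2B, 2 of 8 genes were higher and 1 was lower, with a median of 0.05, beside 3.27 and 2.83 for CDKN2A and CDKN2B themselves. The lowest there was HACD4 (-3.00; 0 and 114 UMIs) and the highest the interferon gene IFNB1 (5.33; 230 and 1 UMIs). MTAP, the gene often lost together with CDKN2A in tumours, was present in both lines at a ratio of 0.894 (0.790 to 1.01), and was chosen after its values were seen.

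CCND1, with a log2 difference of -2.09, lay among genes of which more were higher than lower in MDAMB468. Of 13 genes near it, 4 were higher and 1 was lower in MDAMB468, with a median of 0.77, from LINC02701 (-1.24) to TESMIN (2.83). Near CCND3, 7 of 29 genes were higher and 2 were lower (median 0.07, from NFYA at -1.14 to MDFI at 2.69). Near RBL2, 3 of 9 were higher and 1 was lower (median 0.41, from TOX3 at -2.75 to IRX3 at 4.59). Near CDK6, 1 of 12 was higher and 2 were lower (median -0.42, from GATAD1 at -1.58 to SAMD9 at 3.52). Near CDKN2C, 1 of 6 was higher and 0 were lower (median 0.45, from NRDC at -0.60 to TTC39A at 3.10).

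Genes with the pattern most like that of a member were found by the Euclidean distance of log2(CPM + 1) over 6 values, the 2 lines by 3 called phases. For RB1 these were FADS2 (distance 0.615; 18 and 1464 UMIs), PYGL (0.877) and VLDLR (0.911). For CDKN2A they were PLP2 (0.393; 1180 and 291 UMIs), BTG1 (0.538) and IFNGR1 (0.539). For CCND1 they were TES (0.490; 572 and 6946 UMIs), SCD (0.705) and PDIA4 (0.725). The 6 values come from 2 libraries, and the 3 phases of a line share its library. For RB1 the 3 MDAMB468 values rest on 3, 6 and 9 UMIs.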

How the data were processed

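The authors deposited UMI counts (whole numbers, by gene and barcode) that show no normalisation, and per the submitters' processing notes STARsolo was used. Its version, the genome build, the annotation, the strand setting and the selection of barcodes remain not given in the sources used here. No barcode total was below 2501 UMIs. Barcodes were assigned to a line by their deposited prefix. Gene symbols were taken from a name table (30730 of 30796 identifiers) and positions from GENCODE release 29 (29416 found).

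UMIs were summed per line and scaled to CPM. Differences are log2(CPM + 1) of MDAMB468 minus CAL51, a scale that understates differences of low genes, and called means at least 2-fold among genes with at least 20 UMIs over both libraries. With 1 library per line no test was run. Intervals are exact: Poisson for levels, conditional on the total count for folds, conditional for ratios of ratios, and Clopper-Pearson for shares. The limit for a count of 0 is 3 counts. Thinning was sampling without replacement, and all barcodes reached 2500 UMIs. No doublet caller was run here.

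The members and lists were chosen with earlier results of these data known. Named genes are all members, the 3 highest and 3 lowest of each list plus CCND2, CDKN2D, CCNE1, CDKN1A, CDKN1B and E2F1, the highest and lowest neighbour of each locus, and the 3 genes most like RB1, CDKN2A and CCND1. The other neighbours and overlapping genes named, and GSTP1 and KRT7, were chosen after their values were seen. Some genes that this rule names or that lie near a member are not reported here. The difference calculation was tested on simulated data. Alternatives changed the scaling, pseudocount, minimum count, barcodes used, thinning depth, phase calling and locus window. Tools were scanpy 1.11.5 and pandas 2.3.3 with scipy 1.17.1 and numpy 2.4.6 in Python 3.11.15, edgeR 4.0.16 in R 4.3.3 (TMM factors only), and matplotlib 3.10.9.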

Additional observations from a re-analysis of the deposited data

How the results depend on the processing

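No member changed sign under any of the 8 alternatives run for its difference, with RB1 between -4.53 and -2.73, CDKN2A between 2.79 and 3.39, CDKN2B between 1.01 and 3.72, and CDK4 between -2.27 and -2.00. With a minimum of 100 UMIs, 1 member was called higher, since CDKN2B had fewer. The RBL2 difference reached 1.02 at its highest over the 8 alternatives, just past the 2-fold limit. Members called lower were 4 in place of 5 without satellites, with totals without mitochondrial and ribosomal protein genes and at a pseudocount of 10 CPM, each time without CDKN2C, and 5 in the rest. The E2F targets called lower, 8 as reported, were 11 with TMM, 12 with median of ratios scaling and 6 with totals without mitochondrial and ribosomal protein genes. The corepressors had 1 gene lower with TMM and 1 with median of ratios scaling, the E2F targets 1 higher with totals without mitochondrial and ribosomal protein genes and 1 with the mean over barcodes, and the E2F and DP factors 1 lower at a pseudocount of 10 CPM. The median of the RB1 neighbours was -1.10 within 0.5 Mb and -0.46 within 2 Mb, where 8 of 27 genes were lower and 1 was higher. The RB1 share in MDAMB468 was 4.25% at 5000 UMIs and 5.56% without thinning, and in CAL51 8.54% at 1000 UMIs, 29.7% at 5000 and 49.1% without thinning, since detection moves with depth. The RB1 ratio of S to G2M in CAL51 was 1.11 with phases called at 2500 UMIs. The CCND1 ratio of S to G1 in CAL51 was 0.491 with each line scored by itself, 0.429 with calls at 2500 UMIs and 0.483 without satellites, and the CDKN2C ratio of G2M to G1 was 2.11, 1.96 and 2.74. No paired analysis was possible because each line had 1 library. Counts under 100 UMIs (RB1, RBL1, CDKN2B and CDKN2C in MDAMB468, CDKN2B in CAL51) limit precision, and variation between libraries was not measured.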
